A study of Rattus norvegicus with 42 samples.

Results

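This account describes 672 TSS peaks, clusters of transcription start sites mapped by CAGE, whose tag counts stood above control in rat soleus on days 1, 3 and 7 after reloading. They are 6.74% of the 9969 peaks of the series outside the mitochondrial chromosome. The peaks were selected on measured values: the group mean in CPM (a peak's tag count scaled to a common total over all peaks of its library), with 1 CPM added, had to be at least 2 times the soleus control on the first day of recovery (R1) and at least 1.5 times on the third (R3) and seventh (R7). The soleus control had to lie between 0.25 and 4 times the EDL control, with 1 CPM added to both. Controls near 0 CPM could thus differ by more than 4 times. The R1 condition alone left 2329 peaks, the R3 condition 1003, the R7 condition 696, and the condition on the controls 672. These ratios to the soleus control therefore chose the peaks and are given below as a description, with no test.

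Soleus is a slow postural muscle of the calf and extensor digitorum longus (EDL) a fast muscle of the shin. Taking load off the hindlimb makes soleus lose mass, and putting load back on a wasted soleus is known to strain its fibres, to bring immune cells into the tissue and to start regrowth. CAGE sequences the capped 5′ ends of RNA, so a tag is taken to mark where a transcript began. The tags of a peak are read as a count of transcripts from that promoter or other start region.

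The samples were both muscles of 21 mature Wistar rats, 42 libraries in 14 groups of 3 rats. Control rats (C) moved freely. Unloaded rats hung by the tail for 1, 3 or 7 days (D1, D3 and D7), and recovering rats were unloaded for 7 days and then moved freely for 1, 3 or 7 days (R1, R3 and R7). All groups were of 1 strain, and RNA of the muscle was sequenced in bulk, so a change in the number of cells of a type and a change in RNA per cell cannot be told apart.

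Positions are those of the rat genome build Rnor_6.0. No gene annotation of that build was used here, so peaks are named by position and strand, and neither their genes nor the marker genes of the muscles are given. The libraries held 1778712 to 23103236 tags, of which 1517246 to 20296805 fell on the peaks. All control libraries of both muscles were sequenced in lane 1 and all R1 libraries in lane 4, so lane and phase cannot be told apart there. The soleus library of rat U24 at D1, also from lane 1, had a median log2 ratio to control of -0.10 over the members. The D1 soleus libraries of lane 2 had -0.18 in U25 and 0.11 in U26. At R3 the soleus of U4, from lane 4, had 1.28, and those of lane 5 had 1.19 in U16 and 0.81 in U5.

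The members took a small share of the soleus tags in control and unloaded rats and on average a larger one after reloading, largest at R1. They held 1.35 ± 0.211% of the peak tags in control soleus (mean ± SD, n = 3), 1.38 ± 0.0850% at D1, 1.85 ± 0.251% at D3 and 1.63 ± 0.0872% at D7. After reloading the mean share was 7.22% on day 1 (range 5.97% to 8.88%), 3.41 ± 0.721% on day 3 and 3.30 ± 1.30% on day 7. The 3 R1 libraries gave 8.88% in rat U18, 6.80% in U20 and 5.97% in U21, and the 3 R3 libraries 4.18% in U4, 3.31% in U16 and 2.75% in U5. At R1 a single member, chr12:23840390-23841131, held 28549 CPM in U18, 10635 CPM in U20 and 10535 CPM in U21. At R7 the shares were 4.67% in U12, 3.15% in U13 and 2.08% in U19. The R7 library of U19 thus lay just below the highest unloaded library, the D3 library of U9 with 2.13%, while the other 8 recovery libraries lay above all unloaded ones.

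**Figure D1:**
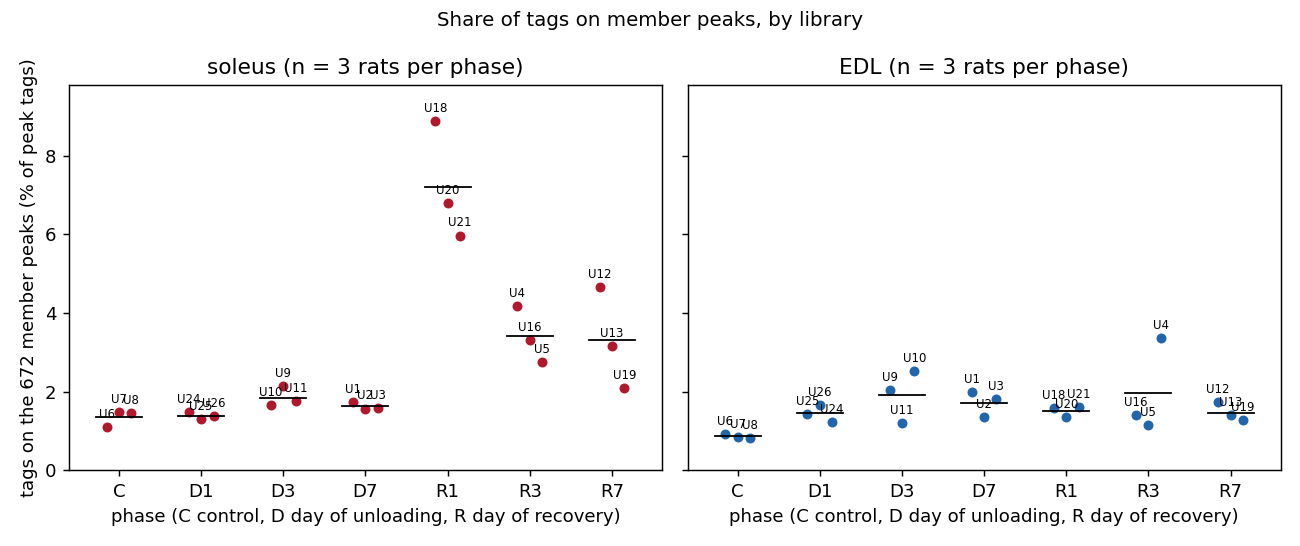
Each point is 1 library, labelled with its rat; the vertical axis is the percentage of its peak tags on the 672 member peaks, and the line is the mean of the 3 rats of a phase. Soleus rises from 1.35% in control to 7.22% at R1 and stays above 3% on average at R3 and R7 with wide spread, and in EDL the R3 library of U4 (3.37%) stands above all others.

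The median member ratio was 3.25 at R1 (quartiles 2.49 and 5.25), 2.17 at R3 (1.81 and 2.89) and 2.13 at R7 (1.75 and 2.98). The medians over all 9969 peaks were 1.20, 1.06 and 0.974. Most members fell back from their first-day level: 483 (71.9%) had their highest recovery mean at R1, 78 (11.6%) at R3 and 111 (16.5%) at R7. The ratio of the R7 to the R1 level had a median of 0.660, was under 0.5 in 224 members and over 1 in 132. The R7 mean was above the R3 mean in 327 of 672 members. The R3 and R7 counts of the highest phase turned on single libraries. Of 641 members outside a chromosome 17 stretch described below, 88 were highest at R7, 28 without U12 and 167 without U19. At R3 it was 72, and 24 without U4. At R1 it was 481, and 417 to 521 with 1 recovery library left out.

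The unloading phases were not used by the rule, although they share the control libraries with it. The median ratio was 1.01 at D1, 1.28 at D3 and 1.09 at D7, against 0.917 at D1 and 1.07 at D3 over all 9969 peaks. At D7 the members were not above all peaks in this median. A ratio of at least 1.5 was reached by 88 members at D1, 198 at D3 and 105 at D7, and a ratio of at most 0.667 by 77, 24 and 54. The higher counts were 13.1%, 29.5% and 15.6% of the members at D1, D3 and D7, against 6.64%, 14.2% and 13.9% of all peaks, so that D7 was near the background. The lower counts were 11.5%, 3.57% and 8.04%, against 15.2%, 8.03% and 5.76% of all peaks.

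The level of the members in control soleus was below that of peaks at large. The control mean in soleus had a median of 5.45 CPM (quartiles 2.55 and 13.8), against 11.8 CPM over all peaks. The rule divides by this mean and so favours low values, and nothing is read from the difference. In EDL control the median was 3.44 CPM over the members and 9.17 CPM over all peaks. It was 3.69 CPM over the 1588 peaks that passed the R1 and control conditions but missed a later one. The control mean of the members in soleus ranged widely. It was under 1 CPM in 63 members and at least 100 CPM in 32, with a highest value of 612 CPM. The median width was 200 nt, and 207 nt over all peaks.

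The size of the rise at R7 differed strongly between rats. For each library the median over members of the log2 ratio to the control mean was 1.60 in U18, 1.79 in U20 and 1.70 in U21 at R1, then 1.28 in U4, 1.19 in U16 and 0.81 in U5 at R3. At R7 it was 1.62 in U12, 0.86 in U13 and 0.16 in U19. U12 was the highest of the 3 R7 libraries in 534 members and U19 the lowest in 522. The level of U19 was above the highest control in 285 members (42.4%), that of U13 in 587 (87.4%) and that of U12 in 655 (97.5%). Over all peaks the same shares were 17.9%, 25.7% and 44.8%. U19 was also the only R7 soleus library from lane 6 and the smallest of the 3 by peak tags, 3972844 against 8802702 in U12 and 10224617 in U13, with 76.4% of its tags on the peaks against 90.4% and 88.3%. The part of lane and depth in its lower levels was not tested.

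**Figure D2:**
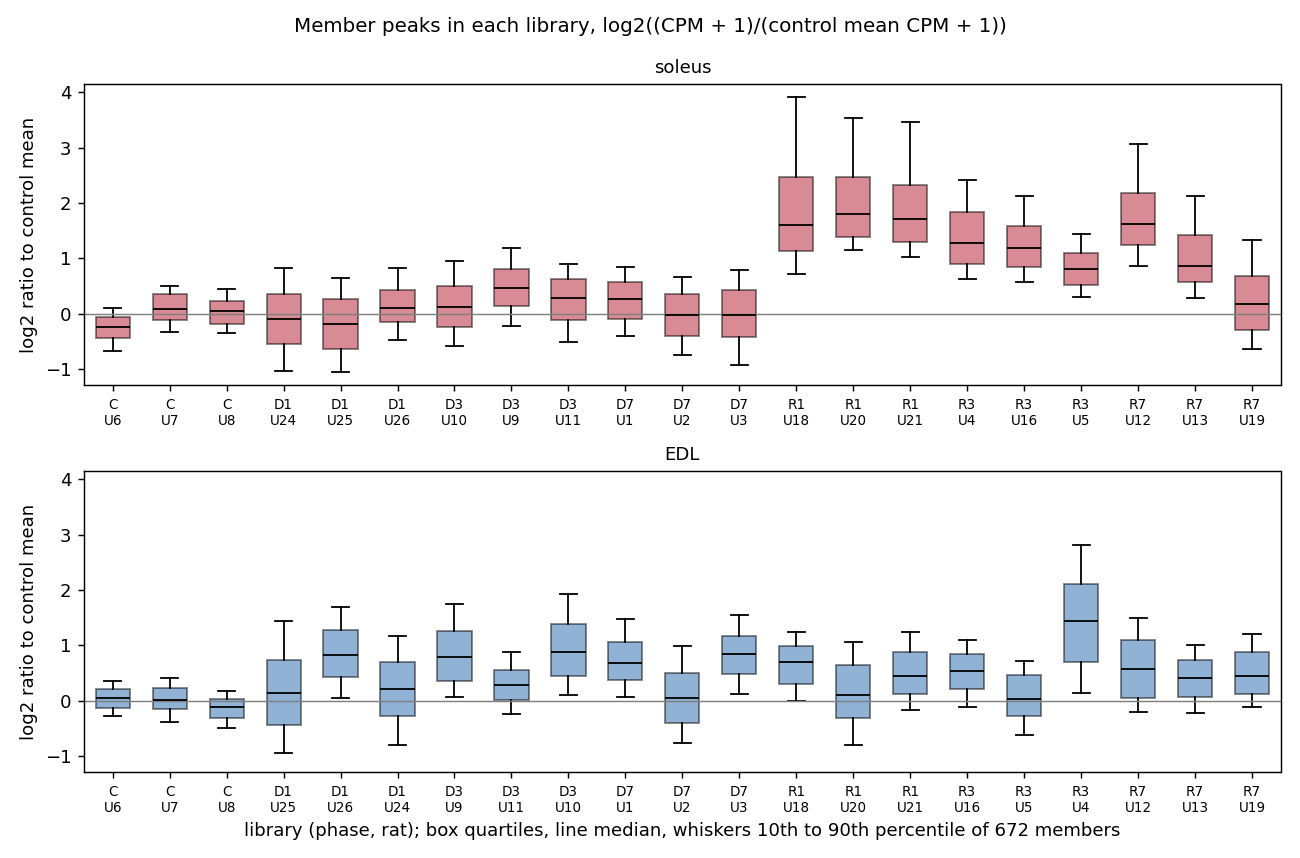
Boxes show, for each library, the quartiles and median over 672 members of the log2 ratio of CPM + 1 to the control mean of the same muscle, with whiskers from the 10th to the 90th percentile. The R7 soleus medians run from 1.62 in U12 to 0.16 in U19, and in EDL the R3 library of U4 has the highest median (1.44).

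Separation from the controls followed the same order of phases. All 3 R1 libraries lay above all 3 controls in 635 members (94.5%), where 38.2% of all peaks did so. At R3 this held for 529 members (78.7%, all peaks 18.9%), and at R7 for 247 (36.8%, all peaks 6.87%). All 9 recovery libraries lay above the 3 controls in 215 members (32.0%, all peaks 3.58%), and above the controls and the 9 unloaded libraries in 54 (8.04%, all peaks 0.612%). Without U19 at R7 these counts were 454 (all peaks 8.78%) and 156 (all peaks 2.07%). The rule itself leaned on U12: without that library 371 peaks met it, 365 of them among the 672, and without U19 774 did. Since the rule used these libraries, the counts describe the selected peaks and nothing is read from the excess over the background.

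The 8 members with the largest smallest ratio at the 3 recovery phases, among those of at least 10 CPM at R7, are called peaks A to H. Peak A was chr1:254735508-254735753 on the minus strand, peak B chr5:79874432-79874568 on the minus strand, peak C chr18:47512982-47513550 on the minus strand and peak D chr1:254734955-254735094 on the minus strand. Peak E was chr2:187322297-187322385 on the plus strand, peak F chr2:22385642-22385902 on the minus strand, peak G chr18:63130387-63130586 on the plus strand and peak H chr16:6962574-6963118 on the plus strand.

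Peak A showed the steepest lasting rise of these. In soleus it stood at 25.7, 3.35 and 14.1 CPM in the 3 controls and at 0.408 to 7.01 CPM in the 9 unloaded libraries. After reloading it reached 509, 998 and 542 CPM at R1, then 340 CPM in U4, 320 CPM in U16 and 39.9 CPM in U5 at R3, and 449 CPM in U12, 641 CPM in U13 and 364 CPM in U19 at R7. Every recovery library lay above every control and every unloaded library, and U19 was not apart from the other R7 rats here. The ratio to control was 44.5 at R1, 15.2 on day 3 and 31.6 on day 7.

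In EDL the same peak was high in other phases. The EDL controls had 18.5, 3.14 and 5.22 CPM. The unloaded EDL libraries had 91.0 to 438 CPM at D1, 111 to 645 CPM at D3 and 116 to 245 CPM at D7, all above all controls. In recovery the EDL libraries had 1.42 to 38.2 CPM, overlapping the controls and below every unloaded EDL library. Peak A was thus high in EDL while the limb was unloaded and high in soleus after it was loaded again.

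Peak D lies beside peak A on the same strand, and a further member lies near them at chr1:254727031-254727833. Both followed peak A at lower levels. At peak D the R3 library of U5, at 0.673 CPM, lay below the highest control, 0.719 CPM in U6. Peak D had means of 0.333 CPM in control soleus, 6.23 CPM at R3 and 13.4 CPM at R7, and 9.95 to 15.9 CPM in the R1 libraries. The further member had means of 0.755 CPM in control, 12.4 CPM at R1 and 5.36 CPM at R3, and 7.04 to 22.9 CPM in the R7 libraries. At R7 peak D reached 7.27 CPM in U12, 18.3 CPM in U13 and 14.6 CPM in U19, so that U12 was the lowest. The further member was the member nearest to peak D in pattern, with Pearson r = 0.990 of log2(CPM + 1) over the 21 soleus libraries, a description over libraries that share groups and depth.

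Peak H was the most strongly transcribed of the 8. Its soleus controls were at 169, 168 and 281 CPM, and the D1 libraries lower at 52.4, 49.4 and 83.8 CPM. R1 gave 3208, 4203 and 2310 CPM, R3 gave 1836, 1076 and 516 CPM, and R7 gave 1088, 922 and 902 CPM. No recovery library overlapped the controls or the unloaded libraries, the highest of which was 302 CPM, and the 3 R7 rats were close together. EDL controls were at 156 to 198 CPM, and the 9 unloaded EDL libraries at 564 to 3657 CPM. The EDL libraries of recovery had 486 to 860 CPM at R1 and 229 to 1237 CPM at R3, still above all EDL controls, and 67.4 to 205 CPM at R7. Another member, chr16:6964288-6964972 on the same strand, starts 1714 nt from peak H and was its nearest in pattern (r = 0.979 over 21 libraries). For peaks A, B, C, E, F and G the member nearest in pattern lay on another chromosome. For peak A it was chr4:83390817-83391430 (r = 0.968).

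**Figure D3:**
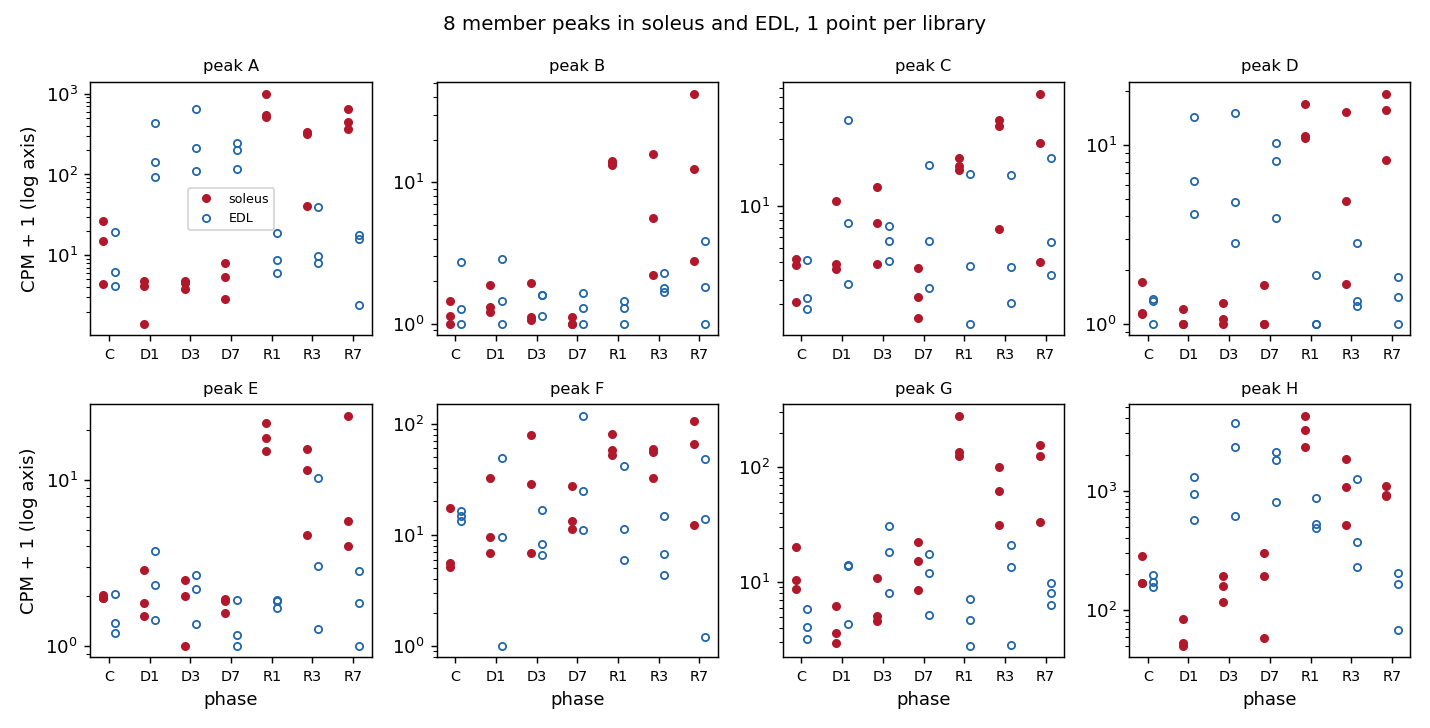
Levels of peaks A to H in every library, as CPM + 1 on a log axis; filled points are soleus and open points EDL, 3 rats per phase. Peaks A and H lie high in unloaded EDL and in reloaded soleus, while peaks B, C, E and F spread widely between the rats at R7.

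Peaks B, C and E behaved otherwise at R7. Peak B was at 0, 0.134 and 0.440 CPM in the controls and at a mean of 12.7 CPM at R1 with all 3 rats close together, while R7 gave 41.0 CPM in U12, 11.3 CPM in U13 and 1.76 CPM in U19. Peak C was at 1.08, 2.81 and 3.22 CPM in the controls and at a mean of 18.9 CPM at R1 (lowest 17.2 CPM), and reached 62.4 CPM in U12 and 27.3 CPM in U13, while U19 at 3.02 CPM lay within the control range. Peak E was at 0.934 to 1.03 CPM in the controls and at 23.5, 4.69 and 3.02 CPM in the same 3 rats. For these peaks the R7 mean rested mainly on U12.

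Peak F had 4.10, 4.55 and 16.4 CPM in the controls and overlapped them at R7, where U19 stood at 11.3 CPM beside 106 CPM in U12 and 65.1 CPM in U13. It was also raised in single unloaded rats, up to 79.0 CPM in U11 at D3. Peak G rose from 7.76, 9.51 and 19.3 CPM to 278, 135 and 124 CPM at R1, and stood at 156, 125 and 32.5 CPM at R7 in U12, U13 and U19. All 9 of its recovery libraries lay above the controls. The highest unloaded value of peak G was 21.3 CPM.

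The 5 members with the highest control means were of another kind, with large levels and mostly modest ratios. The highest, chr3:53633317-53642698 on the plus strand, is 9382 nt wide, far wider than the median member, and its tags were spread, with 1.99% at its most used start in control soleus. It had 512, 693 and 631 CPM in the controls, 2136, 1649 and 1248 CPM at R1, 941, 1658 and 952 CPM at R3, and 812, 2851 and 1350 CPM at R7. The peak chr3:53563136-53563356, also on the plus strand, went from 276 to 609 CPM in the controls to 1836 to 3596 CPM at R1 and 639 to 2178 CPM at R7. Both were lower at D3 than in every control, with ratios of 0.601 and 0.557.

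The peak chr12:23840390-23841131 on the minus strand had the largest first-day burst of these 5. It had 459, 391 and 493 CPM in the controls and 28549, 10635 and 10535 CPM at R1, a ratio of 36.9. At R3 it was at 590 to 875 CPM and at R7 at 597, 992 and 1490 CPM, with U19 the highest of the 3. The remaining pair, chr1:185328766-185329001 and chr10:95642595-95643000, both on the plus strand, had ratios of 2.22 and 2.04 at R1 and of 1.53 for both at R7. The R7 libraries of the latter, 380 to 623 CPM, lay above its controls at 337 to 354 CPM, with U13 the closest to them.

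The extremes of the course from R1 to R7 showed how much 1 rat could carry. The peak chr7:77966624-77966910 on the plus strand had the largest ratio of R7 to R1, 13.1, but its R7 values were 207 CPM in U12, 17.9 CPM in U13 and 1.51 CPM in U19, beside controls of 0.575, 0.134 and 3.52 CPM. The peak chr2:187343865-187344198 on the plus strand followed with 2.96, and R7 values of 55.9, 124 and 7.55 CPM in the same order. The third, chr17:43633598-43633780 on the plus strand, had a ratio of 2.90 and is described with its neighbours below.

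The 3 members with the smallest ratio of R7 to R1 were first-day bursts with means of 0.954 to 5.76 CPM at R7. The peak chr14:18531173-18531274 on the minus strand had 211, 38.5 and 42.7 CPM at R1 and 0.682 to 1.17 CPM at R7, from 3 tags in all controls. The peak chr16:81639096-81639190 on the plus strand had 143, 71.2 and 60.9 CPM at R1, and at R7 0 CPM in U12, 0.293 CPM in U13 and 3.02 CPM in U19. The peak chr20:4958731-4958752 on the minus strand had no tag in 28209093 control tags, which allows up to 0.106 CPM (3 tags over the 3 controls, counting error only). Its R1 mean was at least 10176-fold higher than that limit and its R7 mean at least 54.2-fold higher. It also had tags in unloaded soleus, 5.51 CPM in U24 at D1 and 16.8 CPM in U3 at D7. The D7 mean, 5.61 CPM, came from U3 and was near the R7 mean of 5.76 CPM. Its R1 values were 2865 CPM in U18, 381 CPM in U20 and 0.376 CPM in U21, so the R1 mean came from U18 and U20 and the third rat was near 0. Its R7 values were 6.82 CPM in U12, 10.5 CPM in U13 and 0 CPM in U19, and at R3 it had 0.147 CPM in U4 and 0 CPM in U16, so that the R3 mean of 6.04 CPM came from U5.

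Members also lay near the thresholds. Just inside the R1 limit were chr19:40043607-40043627 at 2.0013 and chr12:7186829-7186945 at 2.0014, and just outside chr7:34484836-34485045 at 1.9934 and chr6:86921678-86921872 at 1.9878. For R3, chr8:55176705-55178227 at 1.5024 and chr11:32768934-32769046 at 1.5047 were just inside, chr9:17818354-17818722 at 1.4991 and chr15:3544475-3544801 at 1.4958 just outside. For R7, chr10:14088152-14088256 at 1.5001 and chr19:54314827-54314873 at 1.5028 were just inside, chr18:69784060-69784234 at 1.4999 and chr5:164923231-164923417 at 1.4994 just outside.

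Members were not spread evenly along the genome. They made up 15.4% of the peaks of chromosome 17 (49 of 319) and 12.1% of those of chromosome 12 (35 of 290), and between 3.83% and 9.79% on the other autosomes. Of 672 members, 100 (14.9%) lay within 10 kb of another member, in 38 runs. Of all neighbouring peaks within 10 kb of a member on the same strand 40.9% were members too (146 of 357), and of those on the other strand 20.9% (36 of 172). A pair of peaks on 1 strand this close can belong to 1 gene, so they are not independent of each other.

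The largest grouping, with members linked over gaps of up to 1 Mb, was on chromosome 17 from 43614794 to 44841493. There 31 of 44 peaks were members, 16 on the plus and 15 on the minus strand, with a median width of 164 nt. This stretch was chosen after its values were seen, and it is described without a test. Its members, unlike most of the rest, had the highest recovery mean at R7 in 23 and at R3 in 6, and at R1 in only 2, while 481 of the other 641 members were highest at R1. Their median ratio was 2.83 (R1), 4.87 (R3) and 6.02 (R7), and that of the other members 3.29, 2.14 and 2.08. The order of R3 and R7 rested on single rats: without U12 none of the 31 was highest at R7 and 29 were at R3, with a median R7 ratio of 2.43, and without U5 at R3 7 were highest at R7 and 22 at R3. With any 1 of the 9 recovery libraries left out, 2 or 3 of the 31 were highest at R1. Of the 13 peaks in the stretch that were no members, 8 also had ratios of at least 1.5 at both R3 and R7.

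The summed level of the 31 members separated the rats sharply. In soleus it was 192, 302 and 513 CPM in the controls and 855, 837 and 1438 CPM at R1. At R3 it was 1955 CPM in U4, 1952 CPM in U16 and 864 CPM in U5. At R7 it was 3647 CPM in U12, 1301 CPM in U13 and 240 CPM in U19. U19 was within the control range for the sum, and above the highest control in 1 of the 31 members. The peak chr17:43633598-43633780 had 297 CPM in U12, 88.0 CPM in U13 and 5.79 CPM in U19 at R7, with controls of 4.89, 17.5 and 29.2 CPM.

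**Figure D4:**
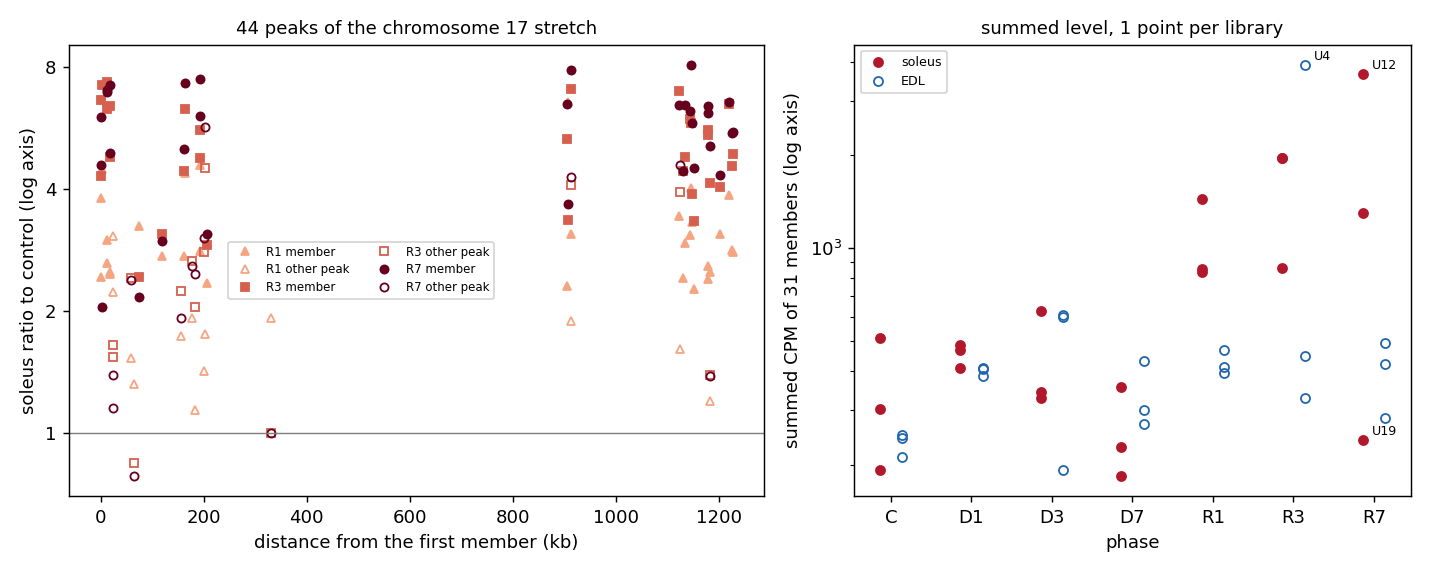
Left, soleus ratios to control at R1, R3 and R7 (log axis) of the 44 peaks of the chromosome 17 stretch against distance from the first member in kb, filled for the 31 members; right, summed CPM of the 31 members in every library (log axis), filled for soleus and open for EDL. U12 at R7 (3647 CPM) and the EDL of U4 at R3 (3908 CPM) are the highest, and U19 at R7 (240 CPM) lies among the controls.

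The course of these 31 members through unloading was as follows. Their median ratio in soleus was 1.32 at D1, 1.06 at D3 and 0.532 at D7, where that of all 672 members was 1.09. The 3 D7 libraries lay below all controls in 10 of the 31, against 4.37% of the other members and 3.74% of all peaks. Summed, D1 had 411 to 488 CPM and D7 had 184 to 355 CPM, so the 2 phases did not overlap, while the D7 sums overlapped the controls. In EDL the sum was 212 to 249 CPM in the controls and 283 to 493 CPM at R7. At R3 it was 447 CPM in U16, 329 CPM in U5 and 3908 CPM in U4.

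Some smaller groupings were made up of members alone. On chromosome 3 between 53563136 and 53658064 all 8 peaks of the table were members, all on the plus strand, with median ratios of 2.63 at R1, 1.82 at R3 and 2.73 at R7 and of 0.622, 0.580 and 0.683 in the 3 unloaded phases. On chromosome 1 between 104147200 and 104153108 all 5 peaks were members, with median ratios of 8.10, 2.24 and 2.94. The strongest of these 5, chr1:104152972-104153108, went from 3.33 CPM in control to 51.0 CPM at R1 and 13.8 CPM at R7. On chromosome 12 between 13715776 and 13719378 all 4 were members, the first of which, chr12:13715776-13715874, went from 247 CPM to 1296, 615 and 627 CPM at R1, R3 and R7.

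The start positions used within the members did not shift as a rule. With at least 50 pooled tags required in both groups, 549 members could be compared between control and R7, and the most used position was the same in 442 (80.5%), against 78.2% of all peaks. It moved by over 50 nt in 28 (5.10%), against 5.03% of all peaks. At R1 it was the same in 419 of 549 (76.3%), against 74.7%. The median share of tags on the most used position was 28.5% in control and 28.3% at R7, and 22.9% and 21.9% over all peaks.

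In 19 of the 549 members the most used start lay over 50 nt from that of control at both R1 and R7, and in 15 of these R1 and R7 used starts within 10 nt of each other. The matching share of all peaks was not computed. At R1 alone such a move was seen in 5.10% of members and 5.76% of all peaks, so nothing is read from the 19. In some of the 19 the R1 start already led during unloading. At chr7:75575139-75576025, position 75575396 led at D1, D3 and R1. Peak C was among the 19: position 47513309 led in control and at D1, and position 47513407 led at R1, R3 and R7 with 9.61%, 8.85% and 9.76% of its tags. Its control call rested on 58 tags. Peak A kept position 254735553 in all 7 phases, with 46.7% of tags in control, 49.6% at R1 and 40.9% at R7. Peak H kept position 6962925 throughout, with 53.8%, 64.1% and 55.8%.

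In EDL, whose recovery libraries the rule did not use, no member was called at any recovery phase. A call needed an adjusted p under 0.05 in edgeR's quasi-likelihood test and a log2 fold change beyond 1.25 in either direction, and 612 of the 672 members passed its filter on low counts. None of them was called against EDL control at R1, R3 or R7, and neither was any of the 9341 peaks tested (0% at each phase). The EDL controls entered the rule through the control ratio, and they come from the same rats and lane as the soleus controls whose low values chose the members. The EDL recovery libraries likewise come from the same rats as the soleus recovery libraries whose high values chose the members. The part of these shared sources in the differences from EDL control cannot be told apart, and the 3 comparisons share the EDL controls.

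The unadjusted counts against these controls are given as a description, since the rule used the same control libraries. At R1, 60 of 612 were higher at an unadjusted p under 0.05 (all peaks 5.29%) and 3 lower, with a median log2 fold change of 0.44 against 0.02 over all peaks. DESeq2 called 3 (all peaks 0.261%). At R7, 54 were higher (all peaks 2.62%) and 1 lower, with a median of 0.54 against 0.00, and DESeq2 called none (all peaks 0.0100%). At R3, 239 were higher (39.1%, all peaks 9.01%) and none lower, with a median of 0.90 against -0.01, and DESeq2 called 40 (all peaks 0.903%). With the sequencing lane as a term in a fit over all libraries the counts higher at that p were 7, 61 and 9 of 672 at R1, R3 and R7 (all peaks 1.97%, 4.16% and 1.61%). In lane 1 the only library other than controls was the soleus of U24 at D1. In lane 4 the only one other than R1 was the soleus of U4 at R3, a library of the rule. Lane and phase are thus hardly separated in this fit, and nothing is read from the lower counts.

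The R3 count in EDL rested on 1 rat. U4 had the highest EDL level at R3 in 540 of 672 members, and in 227 of the 239 higher at p under 0.05. Its median log2 ratio to EDL control was 1.44, against 0.53 in U16 and 0.02 in U5. Without U4, 32 of 628 members tested (5.10%) were higher, against 2.05% of all peaks, and the median log2 fold change was 0.33. Without U5, 48 of 635 were called (all peaks 0.949%), none of them in the chromosome 17 stretch. In the stretch the U4 library had a median log2 ratio of 4.35 and over the other members 1.39. The soleus of U4 was the highest of the R3 rats in 342 of 672 members. The EDL of U4 was in lane 6 and those of U5 and U16 in lane 5, and with the lane as a term the R3 count was the 61 given above. At R1 the count of 60 became 24 without U21 (all peaks 2.59%), 35 without U20 (3.44%), 93 without U18 (7.63%) and 35 without U7 of the controls (3.55%). At R7 the count of 54 became 20 without U12 (all peaks 1.04%), 85 without U13 (2.86%), 29 without U6 of the controls (1.65%) and 31 without U8 of the controls (1.70%).

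**Figure D5:**
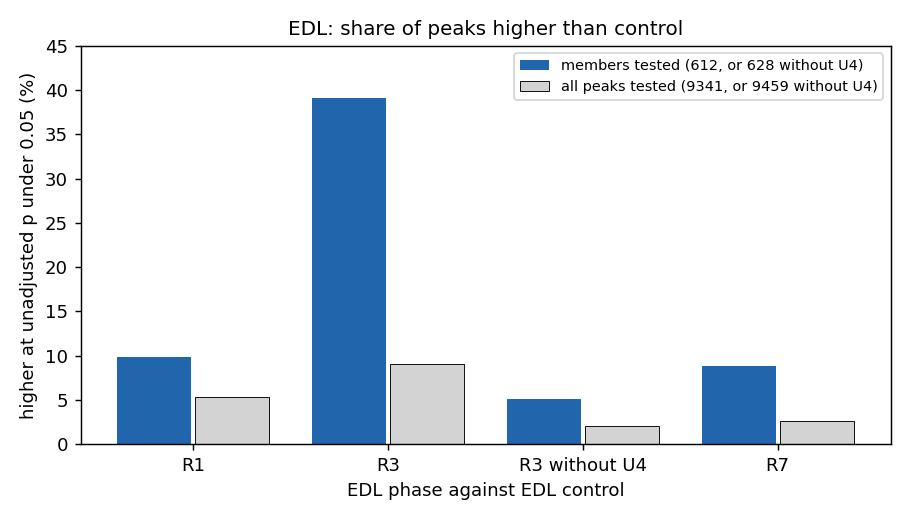
Bars give the percentage of tested peaks higher in EDL recovery than in EDL control at an unadjusted p under 0.05, for members (blue) and all peaks (grey). Members stand at 39.1% at R3 with all 3 rats and at 5.10% without U4, beside 9.01% and 2.05% of all peaks.

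Unloaded EDL, whose libraries the rule did not use, also lay above EDL control over the members by its group means. The median ratio was 1.40 at D1, 1.65 at D3 and 1.51 at D7, and 1.39, 1.78 and 1.48 at R1, R3 and R7. Over all peaks that median was 0.948, 1.17 and 1.19 in the unloaded phases, and 1.15, 1.09 and 1.15 at R1, R3 and R7. The ratio was at least 1.5 in 286 members at D1 (42.6%, all peaks 12.7%), 393 at D3 (58.5%, all peaks 21.8%) and 344 at D7 (51.2%, all peaks 23.0%). The rats differed. Median log2 ratios over members were 0.14 in U25, 0.83 in U26 and 0.21 in U24 at D1. They were 0.78 in U9, 0.28 in U11 and 0.87 in U10 at D3. At D7 U1 had 0.69, U2 0.05 and U3 0.84. The unloaded phases share the EDL controls with the comparisons above.

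EDL R1 was next compared with EDL D7. No library of the rule is on either side of this contrast, while the EDL controls, as part of the fit over the 7 EDL groups, enter its filter and its estimate of the spread. The EDL R1 libraries come from the same rats and lane as the soleus R1 libraries of the rule. They were all in lane 4 and those of EDL D7 in lanes 3 and 6, so lane and phase cannot be told apart. No member was called by edgeR in either direction, where 0.0107% of all peaks were called higher and 0.0107% lower. At an unadjusted p under 0.05, 7 members were higher (1.14%, all peaks 2.73%) and 38 lower (6.21%, all peaks 3.43%). The median log2 fold change was -0.06. With the lane as a term in a fit over all libraries it was -0.39 (0.07 over all peaks), and nothing is read from this shift. DESeq2 called 8, all lower (all peaks 0.431% in both directions). At R1 269 of 612 members were higher than at D7, against 49.1% of all peaks. Among peaks that passed the R1 condition and the condition on the controls but missed a later one, 40.7% were higher. A lower share than in all peaks was thus not particular to the members, and the differences between these shares were not tested.

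Soleus D7 was compared with soleus D1, again with no library of the rule on either side, while the control and recovery libraries that chose the members enter the estimate of the spread and the filter on low counts. Of 672 members 2 were called higher (0.298%, all peaks 0.589%) and 3 lower (0.446%, all peaks 0.447%), and the median log2 fold change was -0.20. With only the D1 and D7 libraries in the fit 16 of 583 members tested were called (all peaks 1.00%), and DESeq2 called 32 (all peaks 2.88%). The peak chr1:72420189-72420412 on the plus strand rose with a log2 fold change of 6.25 (SE 1.23, adjusted p = 0.0143 by edgeR), from 0.204, 0 and 0 CPM to 2.19, 4.94 and 5.02 CPM. The peak chr3:2444271-2444413 on the minus strand rose by 1.61 (SE 0.244, adjusted p = 0.00505 by edgeR), from at most 24.5 CPM to at least 75.6 CPM. Neither overlapped between D1 and D7.

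The 3 that fell were chr13:52588804-52589624 on the plus strand, chr17:44766202-44766340 on the plus strand and chr5:104997378-104997858 on the minus strand. The first had 58.5, 53.2 and 51.1 CPM at D1 and 20.8, 16.8 and 15.9 CPM at D7 (log2 fold change -1.99, SE 0.352, adjusted p = 0.00773 by edgeR). The second lies in the chromosome 17 stretch and had 6.32, 4.08 and 4.46 CPM at D1 and 0.658, 0.345 and 0 CPM at D7 (log2 fold change -4.14, SE 0.969, adjusted p = 0.0377 by edgeR). The third had 2.14 to 3.93 CPM at D1 and 0.345 to 1.48 CPM at D7 (log2 fold change -2.25, SE 0.549, adjusted p = 0.0488 by edgeR).

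In the stretch as a whole all 31 members were lower at D7 than at D1 in this fit, with a median log2 fold change of -2.22, against -0.17 over the other members and -0.03 over all peaks, a description of peaks chosen with these values known. By CPM the member chr17:43821409-43821630 was not lower, with ratios to control of 1.16 at D1 and 1.24 at D7. Of the 3 members that fell, none was called with the lane as a term, and the D7 libraries were all in lane 3 and the D1 libraries in lanes 1 and 2. Instead of 5 members (all peaks 1.04%), 1 was called without U2 at D7 (0.425%) and 1 without U3 (0.334%), 3 without U1 at D7 (0.699%) or U24 at D1 (0.719%), and 2 without U25 at D1 (0.405%).

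At D7 the muscles themselves differed at some members. Soleus was compared with EDL at D7 in a fit over all libraries, in which those of the rule enter the estimate of the spread and the filter on low counts, and 4 members were called higher in soleus (0.595%, all peaks 4.75%) and 27 lower (4.02%, all peaks 5.44%). The rule had kept only peaks with similar controls in both muscles, and whether these shares differ was not tested. With only the D7 libraries in the fit 566 members passed the filter, of which 4 were called higher and 24 lower (all peaks 10.2% in both directions). Without U2 of soleus, 3 were called higher and 16 lower (all peaks 8.83% in both directions).

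The 27 members lower in soleus than in EDL at D7 included peaks A and D and their neighbour on chromosome 1. Peak A had 7.01, 1.84 and 4.43 CPM in soleus and 245, 200 and 116 CPM in EDL (log2 fold change -5.76, SE 1.06, adjusted p = 1.34e-04 by edgeR). Peak D gave -5.28 (SE 1.34, adjusted p = 0.00505 by edgeR) and chr1:254727031-254727833 gave -5.92 (SE 1.28, adjusted p = 0.00101 by edgeR). The peak chr2:187692170-187692456 on the plus strand had 6.36, 2.53 and 1.18 CPM in soleus and 73.1, 132 and 22.7 CPM in EDL (log2 fold change -4.96, SE 0.883, adjusted p = 8.88e-05 by edgeR). The peak chr8:117172660-117172863 on the plus strand had 0.574 to 1.18 CPM in soleus and 4.32 to 15.6 CPM in EDL (log2 fold change -4.04, SE 0.882, adjusted p = 0.00111 by edgeR).

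The 27 were chosen for a higher level in EDL at D7, and as members for their soleus recovery, so their values there are a description. Their median ratio to EDL control was 1.84 at D1, 3.88 at D3 and 3.44 at D7, and 1.5 at R1, 1.73 at R3 and 1.14 at R7. All 3 EDL libraries lay above the EDL controls in 13 of the 27 at D1 (all members 29.5%, all peaks 7.95%), 22 at D3 (47.0% and 24.0%) and 19 at D7 (32.7% and 15%). Their median ratio to soleus control was 0.633, 0.939 and 0.895 in the unloaded phases and 6.09, 2.67 and 3.52 in recovery. In 21 of the 27 the R7 soleus library of U19 was above the highest control, against 42.4% of all members. At chr2:187692170-187692456 the R7 values were 71.3 CPM in U12, 39.5 CPM in U13 and 36.2 CPM in U19. Here all 3 rats lay above the highest control, 8.35 CPM.

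The 4 members higher in soleus than in EDL at D7 were chr1:72420189-72420412, chr12:22641009-22641172, chr16:7681162-7681495 and chr13:51128181-51128964, all on the plus strand. The second had 16.4, 27.9 and 59.4 CPM in soleus and 2.99, 0.973 and 2.36 CPM in EDL (log2 fold change 3.80, SE 0.801, adjusted p = 7.32e-04 by edgeR). It also had one of the larger first-day bursts, with 1058, 332 and 296 CPM at R1 and 8.41 to 15.1 CPM at R7. The first gave a log2 fold change of 5.22 (SE 1.11, adjusted p = 0.00121 by edgeR), the third 2.97 (SE 0.827, adjusted p = 0.0116 by edgeR) and the fourth 2.70 (SE 0.860, adjusted p = 0.0305 by edgeR). All 4 were low in EDL, where no D7 library exceeded 2.99 CPM. In the order named, their control means were 1.14, 4.45, 2.63 and 1.80 CPM in soleus and 0.0669, 0.911, 0.0981 and 0.357 CPM in EDL. A higher mean in soleus was thus already there in control rats.

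The peaks that passed the R1 condition and the condition on the controls but missed a later one, 1588 in number, are set beside the members here. Their median R1 ratio was 2.97, near the 3.25 of the members, and their median at R3 was 1.20, where the rule keeps them low on at least 1 of the later days. In EDL at R3 88 of 1256 tested (7.01%, all peaks 9.01%) were higher at an unadjusted p under 0.05 in edgeR's test. Their median log2 fold change was 0.06, beside 0.90 for the members, or 0.33 for the members without U4. At R7 39 were higher (3.11%, all peaks 2.62%) with a median of 0.11, beside 0.54 for the members. Both shares were near those of all peaks. In the R3 library of U4 in EDL the median log2 ratio of the 1588 was 0.15, against 1.44 for the members. These EDL libraries are of the same rats, U4 among them, whose R3 and R7 soleus libraries split the 1588 from the members. The EDL values are thus a description, and the difference between these groups of peaks was not tested.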

How the data were processed

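CAGE libraries (nAnT-iCAGE, single-end) of 42 muscle samples were used. The authors trimmed reads with Trimmomatic, mapped them to Rnor_6.0 with STAR, allowing up to 20 loci per read, and deposited whole-number tag counts per start position and, beside normalized columns, raw tag counts per TSS peak. The submitters' processing notes also name BWA and HISAT2. The normalized columns were not used. A read with several loci can raise similar peaks together. The counts of the table equalled the summed position counts in 418698 of 418698 peak-by-library values.

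CPM was computed over the column sums of 9969 peaks after 2 mitochondrial peaks were left out. Groups came from the labels and lanes from the file names. Contrasts with no control or recovery soleus library on either side were tested with edgeR 4.0.16 under R 4.3.3 (filterByExpr, TMM, quasi-likelihood test, Benjamini-Hochberg adjustment over all tested peaks), with 7 groups of 1 muscle per fit, or 14 groups between muscles, and with DESeq2 1.42.0 as the alternative. The fits were tested on simulated data. Precision is limited by 3 rats a group.

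Peaks named are the 8 with the largest smallest recovery ratio (at least 10 CPM at R7), the 5 highest in control, the 3 largest and 3 smallest ratios of R7 to R1 (at least 10 CPM at R1 or R7), called members up to 5 per direction, and those next to the thresholds. Peaks of the chromosome 17 stretch and of the other groupings were chosen after their values were seen. The members and lists were chosen with earlier results of these data known. Animal numbers mark both muscles of 1 rat. Deviations of its muscles from their group means correlated with r from -0.378 to 0.547 over all peaks. Over the members r ran from -0.125 in U19 to 0.588 in U26. Python 3.11.15, numpy 2.4.6 and pandas 2.3.3 were used. Gene lists and cell type markers were not used, since peaks were not given genes.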

Additional observations from a re-analysis of the deposited data

Results flagged for a closer look

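At some of the peaks named above every soleus library of a given unloading phase lay below all soleus controls. Every EDL library of that phase lay above all EDL controls. The pattern was scored for each phase alone. The difference between the muscles was not tested. At D1, chr16:6962574-6963118 had a ratio to control of 0.304 in soleus and 5.31 in EDL, chr12:23840390-23841131 had 0.441 and 4.56, and chr8:117172660-117172863 had 0.524 and 7.39. The peak chr1:254727031-254727833 had 0.633 in soleus and 9.10 in EDL at D1, and 0.597 and 4.76 at D3. At D3, chr3:53633317-53642698 had 0.601 and 1.98, and chr3:53563136-53563356 had 0.557 and 3.08. Over all members this pattern held for 21 at D1, 11 at D3 and 8 at D7 (3.12%, 1.64% and 1.19%), and over all peaks for 0.853%, 1.47% and 0.702%.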

How the results depend on the processing

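The number of members was 672 and ranged from 371 (without U12 at R7) to 861 (without U7 of the soleus controls) when 1 library was left out, with 365 of the 371 among the 672. It was 492 with TMM sizes and 869 with library tag totals. Against EDL control, where edgeR called no member, DESeq2 called 3 at R1, 40 at R3 and 0 at R7, and leaving out 1 library gave 0 to 48 at R3. For EDL R1 against D7 DESeq2 called 8, and leaving out 1 library gave 0 to 1. For soleus D7 against D1, 5 members were called (all peaks 1.04%), 32 by DESeq2 (2.88%), 16 with only the 2 groups in the fit (1.00%), 3 with the lane as a term (0.513%; all 3 higher), and 1 to 5 with 1 library left out. With library tag totals 6 were called (0.894%), 5 of them higher, as the median over all peaks moved from -0.03 to 0.20 and that of the members from -0.20 to 0.03. In EDL R1 the same scaling moved the median of all peaks from 0.02 to 0.41 and that of the members from 0.44 to 0.83. For soleus against EDL at D7, 31 members were called, and 19 to 35 with 1 library left out. With the rat as a replicate block 26 of 566 members tested were called (all peaks 8.55%, and 10.2% without the block), and the block applied to no other comparison. The median log2 ratio of the members at R1 was 1.59 to 1.84 with 1 library left out, and at R7 0.66 to 1.34. Leaving out libraries for the counts at an unadjusted p, for non-overlap, for the highest recovery phase and for the chromosome 17 stretch was chosen after seeing the data. The causes of these shifts were not tested.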
